A study of Mus musculus with 12 samples.

Results

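The genes that cut and rejoin DNA during antigen receptor assembly were compared between AND-TCR–transgenic and C57BL/6 thymocytes. The list comprised 10 genes, the recombinase genes Rag1 and Rag2, Dntt, and the end-joining and high-mobility-group genes Xrcc5, Xrcc6, Prkdc, Lig4, Xrcc4, Hmgb1 and Hmgb2. Members were found as probe sets annotated with 1 of these symbols and no other on the Affymetrix U74Av2, U74Bv2 and U74Cv2 arrays. That gave 14 probe sets of 8 genes, out of 29197 singly annotated probe sets of 15965 genes. Xrcc4 had no probe set of its own, and Hmgb1 appeared only on 2 probe sets assigned to it together with a second gene, so neither has a value here.

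RNA was taken from total adult thymocytes. One genotype was C57BL/6, the wild type. The other carried the AND-TCR transgene, a rearranged receptor that recognizes peptide on MHC class II, on the H-2b haplotype, on which it is positively selected. The sources used here give neither the promoter of the transgene nor the exact age of the animals. Each genotype had 2 hybridizations on each of the 3 array types, 12 arrays in all, described in the methods as independent experiments. Whether they used separate mice is not stated, so the p-values below measure the spread between hybridizations, part of which may be technical. The coreceptor genes Cd4, Cd8a and Cd8b1 were above the detection limit on all 4 arrays that measured them. Cd8a (log2 fold change −0.87, adjusted p = 0.0363 from limma) and Cd8b1 (−1.27, adjusted p = 0.0111 from limma) were called lower in AND-TCR. Cd4 was not called (−0.56, adjusted p = 0.194 from limma). Every C57BL/6 array had been washed on fluidics module 2 and every AND-TCR array on module 4, and Xist was detected only in C57BL/6 and the Y-linked Eif2s3y and Kdm5d only in AND-TCR, so that genotype, module and sex cannot be told apart.

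V(D)J recombination builds the genes of T and B cell receptors from separate segments. RAG1 and RAG2 together cut DNA at the signals beside each segment, with HMGB1 or HMGB2 bending the DNA in the complex, and the broken ends are joined by the general end-joining pathway, in which Ku70 and Ku80 hold the ends, the kinase DNA-PKcs is recruited, and DNA ligase IV with XRCC4 seals them. Terminal deoxynucleotidyl transferase, the product of Dntt, adds bases without a template at the joints. In the thymus the RAG genes are active in double-negative cells and again in double-positive cells, where the TCR α locus keeps rearranging until a signal through a selected receptor turns them off.

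The promoters of Rag1, Rag2 and Dntt are shown because these 3 genes had a probe set called lower in AND-TCR. The windows run from 250 bases before to 50 bases after the annotated start, in the RefSeq annotation of GRCm38.p6. The Rag1 window lies at chr2:101649483-101649782 on the minus strand, that of Rag2 at chr2:101624462-101624761 on the plus strand, and that of Dntt at chr19:41029025-41029324 on the plus strand. Capitals mark E boxes, the 6-base sequence CANNTG bound by basic helix-loop-helix factors, which reads alike on both strands.
Rag1: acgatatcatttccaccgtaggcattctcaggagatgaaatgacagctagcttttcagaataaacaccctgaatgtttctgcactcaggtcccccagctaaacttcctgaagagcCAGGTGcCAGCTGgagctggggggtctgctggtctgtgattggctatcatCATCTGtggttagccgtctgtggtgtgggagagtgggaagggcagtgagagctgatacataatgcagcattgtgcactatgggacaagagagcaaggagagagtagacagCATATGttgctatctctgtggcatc
Rag2: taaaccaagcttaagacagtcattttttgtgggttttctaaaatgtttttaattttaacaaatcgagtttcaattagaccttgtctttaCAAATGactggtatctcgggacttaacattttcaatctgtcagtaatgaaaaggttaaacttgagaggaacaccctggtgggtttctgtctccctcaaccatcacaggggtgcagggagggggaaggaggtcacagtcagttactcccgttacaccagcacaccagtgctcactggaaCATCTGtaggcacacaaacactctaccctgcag
Dntt: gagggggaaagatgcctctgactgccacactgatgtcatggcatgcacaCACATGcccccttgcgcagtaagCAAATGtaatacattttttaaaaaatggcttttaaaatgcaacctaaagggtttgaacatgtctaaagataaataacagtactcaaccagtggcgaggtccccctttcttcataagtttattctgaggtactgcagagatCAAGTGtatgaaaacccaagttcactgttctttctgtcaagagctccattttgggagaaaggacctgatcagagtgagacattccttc
Rag1 held 4 E boxes, at 135, 128 and 85 bases before the start and 25 bases after it, and the first 2 are parted by a single base. Rag2 held 2, at 161 bases before and 17 bases after the start, and Dntt held 3, at 201, 178 and 38 bases before it. An E box is common, since 72.3% of 32851 promoter windows of this length held at least 1. A CCAAT box, searched as CCAAT on both strands, was found in the window of Rag1 but not in those of Rag2 and Dntt, against 37.4% of all windows. The letters TATAAA (13.6% of windows) and GGGCGG (35.7% of windows) were in none of the 3 windows on either strand. These matches describe letters and do not show that a factor binds.

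The base composition of the windows was also counted, as a description of the 9 members that have one. The Rag1 and Rag2 windows held 3 CpG dinucleotides each and that of Dntt held 2, where the median of all windows was 7. Xrcc5 had 9. Hmgb2 had 20, Hmgb1 had 22, Xrcc6 and Lig4 had 30 each and Xrcc4 had 31. The G and C content was 50% in Rag1, 43% in Rag2 and 42.3% in Dntt, against a median of 52.7%. Of Prkdc no window was used here.

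**Figure D1:**
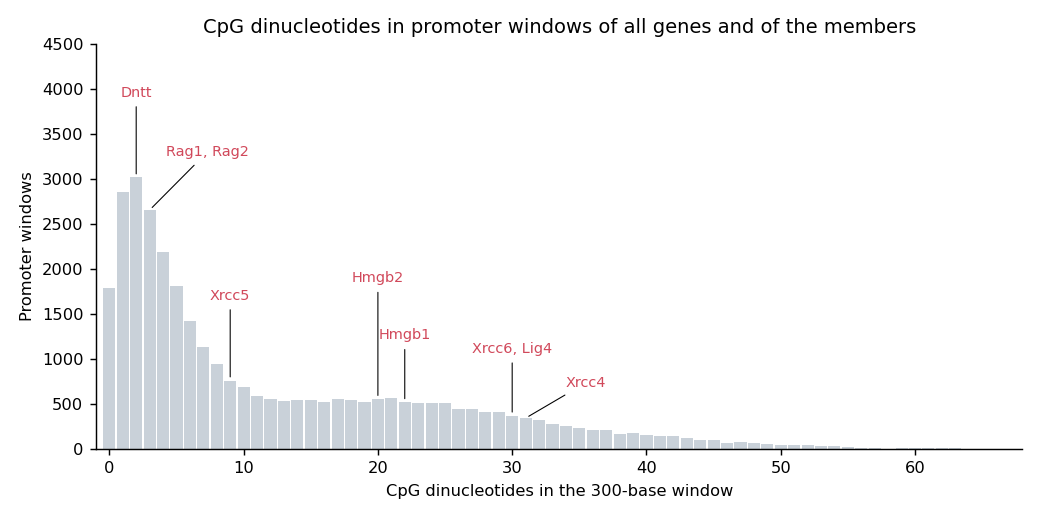
Number of CpG dinucleotides in the 300-base promoter window (x axis) against the number of RefSeq promoter windows with that number (y axis, grey bars, 32851 windows), with the 9 members that have a window named above their bar. Dntt, Rag1 and Rag2 lie at 2 and 3, and the other named genes lie between 9 and 31.

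Of the 14 probe sets, 10 passed the filter for the test, which asked for both arrays of at least 1 genotype above the detection limit of the array type (421 on U74Av2, 869 on U74Bv2 and 1579 on U74Cv2). Transcripts of Rag1, Rag2 and Dntt were lower in AND-TCR–transgenic thymocytes by 3 probe sets, and no member probe set was higher. These are the calls at an adjusted p under 0.05 from limma, which called 0.568% of the 12844 tested probe sets lower. The paper had already reported Rag1 and Rag2 as lower in AND-TCR from these arrays, so their falls are not new here. All 10 tested probe sets had a negative fitted log2 fold change, where 48% of all tested probe sets did. The 10 are of only 7 genes, since Dntt has 3 sets and Rag1 has 2. With each gene at its tested set of highest mean, all 7 were negative, against 47.2% of all genes. Of the 7, 5 were lower at an unadjusted p under 0.05 from limma, against 6.62% of all genes. In 8 of the 10 probe sets both AND-TCR arrays lay below both C57BL/6 arrays, a pattern that 21.4% of all tested probe sets showed. Rag2, among these 8, passed the filter only through C57BL/6, and Rag1 161740_r_at, not among them, only through AND-TCR. Unadjusted p-values under 0.05 with a lower value were reached by 7 of the 10, against 6.51% of all, and 3 of the 10 were at least 2-fold lower in both hybridizations, against 1.19% of all. With the hybridization number as a replicate block, limma called 7 of the 10 lower, against 1.18% of all, and the added calls were both other Dntt probe sets, Xrcc6 and Hmgb2. Same-numbered arrays shared a run day only, and their deviations correlated at 0.04 on U74Av2. Crossed numbers, tried after seeing the data, called 6 of the 10 lower, against 226 of all 12844. The added calls therefore cannot be credited to the matching of the numbers, and the block p-values below carry the same limit. In total thymocyte RNA, fewer cells of a type and less RNA per cell cannot be told apart.

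**Figure D2:**
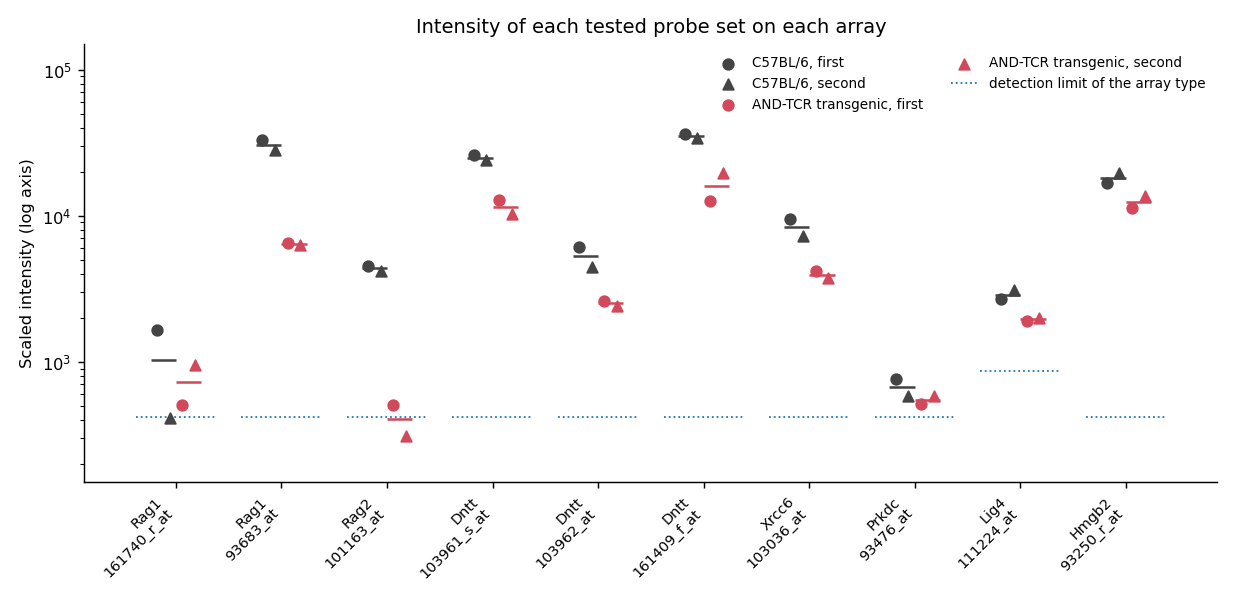
Scaled intensity (y axis, log scale) of the 10 tested member probe sets (x axis) on each of the 4 arrays of their type, with C57BL/6 in grey and AND-TCR in red, circles for the first and triangles for the second hybridization, short bars for the mean of 2 arrays and dotted lines for the detection limit. The red points lie under both grey points in 8 of the 10 probe sets, and 1 Rag1 and the Prkdc probe set overlap.

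Rag1 encodes the catalytic subunit of the recombinase. Its probe set 93683_at read 33115 and 28353 in the first and second C57BL/6 hybridization and 6545 and 6313 in AND-TCR. The 2 arrays of a genotype lay close together, with a second over first ratio of 0.856 in C57BL/6 and 0.965 in AND-TCR, and the genotypes stood far apart. Rag1 was 4.77-fold lower in AND-TCR–transgenic thymocytes (95% interval 3.80 to 5.98, log2 fold change −2.25, standard error (SE) 0.14, n = 2 arrays per genotype, adjusted p = 0.00222 from limma). Among the 5573 tested probe sets of U74Av2, 11 had a more negative log2 fold change.

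The other Rag1 probe set, 161740_r_at, read 1661 and 413 in C57BL/6 and 508 and 953 in AND-TCR. Its second C57BL/6 array was under the limit, the groups overlapped, and the arrays of 1 genotype differed more than the genotypes did. The suffix _r marks a set chosen with relaxed rules for its probes. Its log2 fold change was −0.26 with an SE of 0.65 (adjusted p = 0.905 from limma), with an interval from −1.79 to 1.26 that takes in no change but not the fall seen by the first set. The first C57BL/6 array of U74Av2, the one on which this set read highest, carries a rescan note in the run log. The same array entered the calls of Rag1 93683_at, Rag2 and Dntt. It read above the second C57BL/6 array for those sets too, and below it for Hmgb2. The part of the rescan in any of these results was not tested.

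Rag2 encodes the partner subunit that RAG1 needs for cutting. Its only probe set, 101163_at, read 4549 and 4169 in C57BL/6, and 507 and 311 in AND-TCR. The second AND-TCR array was under the detection limit and the first was just above it, and the value under the limit was set to it for the fit. Rag2 therefore passed the filter only through C57BL/6, a route that favours a lower AND-TCR value. Rag2 was 9.43-fold lower by that fit (95% interval 5.85 to 15.2, log2 fold change −3.24, SE 0.29, 1 of 2 AND-TCR arrays above the limit, adjusted p = 0.00901 from limma). This size and its interval rest in part on the floor. The log2 fold change was −3.15 on a generalized log scale without one and −2.37 with a floor at 2 times the limit. In the first hybridization the ratio of AND-TCR to C57BL/6 was 0.111, and in the second it was at most 0.101. Only 3 tested probe sets of U74Av2 had a more negative value. Whether the fall of Rag2 differed from that of Rag1 was not tested.

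Leaving out any 1 of the 4 hybridizations on all arrays left both recombinase genes with adjusted p-values between 0.189 and 0.391 from limma, a step that ended every call on the arrays, while the log2 fold change stayed between −2.37 and −2.14 for Rag1 and between −3.37 and −3.10 for Rag2. The calls also ended without the filter on low values (adjusted p 0.106 for Rag1 and 0.121 for Rag2 from limma) and with a floor at 2 times the limit (0.118 and 0.125), and without a trend in the prior variance Rag1 had 0.0591.

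The genes form a convergent pair on chromosome 2, with Rag2 on the plus strand at chr2:101624712-101632528 and Rag1 on the minus strand at chr2:101638252-101649532, so that their ends face each other across 5723 bases. Both neighbours were also on the arrays. Iftap, also known as NWC, overlaps the start of Rag2 by 4320 bases at the lower coordinate. Its 2 probe sets on U74Bv2 did not pass the filter, and one, 116039_at, read 1164 and 533 in C57BL/6 and 424 and −69.9 in AND-TCR, with only the first value above the limit. Traf6, a ubiquitin ligase of receptor signaling, begins 28887 bases beyond Rag1. Of its 4 probe sets 2 were tested and neither passed. Traf6 104189_at had a log2 fold change of −0.27 (adjusted p = 0.721 from limma) and 98874_at of −0.94 (adjusted p = 0.249 from limma).

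Dntt was measured by 3 probe sets, which all gave values near a 2-fold difference, while 1 of them passed. The set 103961_s_at, whose suffix marks probes shared by more than 1 transcript, read 25906 and 24193 in C57BL/6 and 12731 and 10330 in AND-TCR. The groups did not overlap, and Dntt was 2.18-fold lower by this set (95% interval 1.71 to 2.79, log2 fold change −1.13, SE 0.15, adjusted p = 0.0255 from limma). The set 103962_at read 6136 and 4489 against 2629 and 2398, with a log2 fold change of −1.06 (SE 0.21, adjusted p = 0.0714 from limma). The set 161409_f_at, whose suffix marks probes shared within a sequence family, read 36295 and 34112 against 12660 and 19541, with a log2 fold change of −1.16 (SE 0.21, adjusted p = 0.0589 from limma). In all 3 sets each AND-TCR array lay below each C57BL/6 array. With the replicate block the adjusted p-values from limma of these other sets were 0.00683 and 0.000689. Without any 1 hybridization the called set had adjusted p-values between 0.189 and 0.461 from limma, with a log2 fold change between −1.28 and −0.98. It had 0.397 without the filter, 0.196 with a floor at 2 times the limit and 0.138 without the trend in the prior variance.

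**Figure D3:**
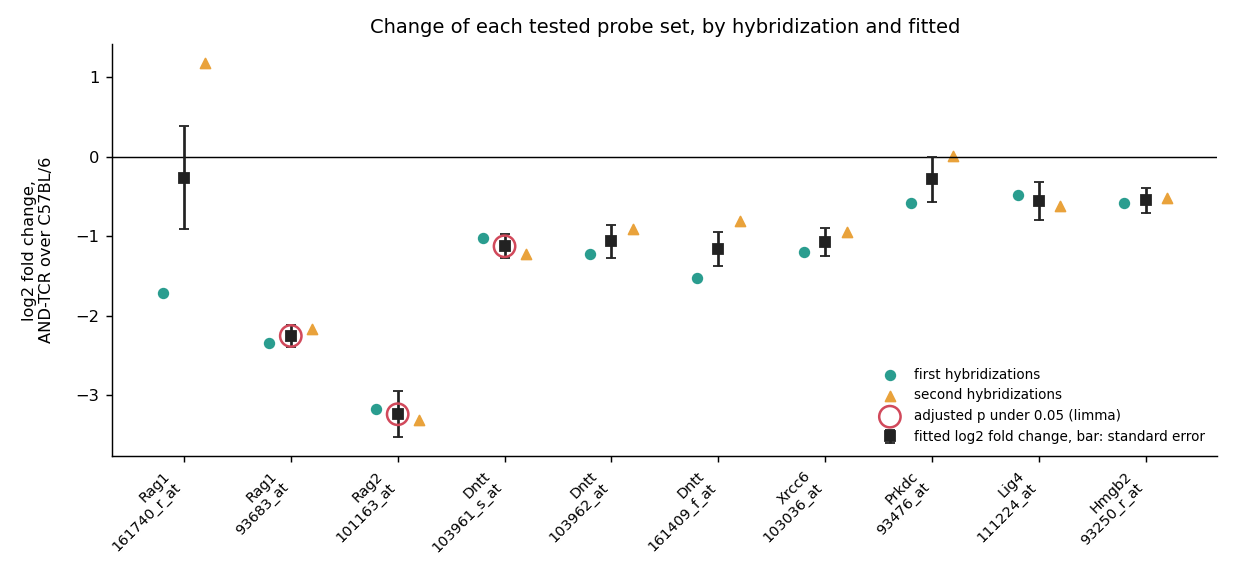
log2 fold change of AND-TCR over C57BL/6 (y axis) for the 10 tested member probe sets (x axis), with squares for the limma fit and bars for its standard error, circles for the ratio of the first hybridizations, triangles for that of the second, and red rings for an adjusted p under 0.05. Rings mark Rag1 93683_at, Rag2 101163_at and Dntt 103961_s_at, and the circle and the triangle lie on opposite sides of 0 for Rag1 161740_r_at and Prkdc 93476_at.

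The Ku proteins bind broken DNA ends first. Xrcc6, which encodes Ku70, read 9570 and 7230 in C57BL/6 and 4157 and 3765 in AND-TCR on its single probe set, 103036_at. The lowest C57BL/6 value was well above the highest AND-TCR value, with ratios of 0.434 in the first and 0.521 in the second hybridization. The log2 fold change was −1.07 (SE 0.18, interval −1.50 to −0.64) and the adjusted p of 0.0518 from limma just missed the threshold. With the replicate block the adjusted p of Xrcc6 from limma was 0.00148, and with p-values adjusted within the array type it was 0.0443. Xrcc5, which encodes Ku80, was under the detection limit on all 4 arrays by both of its probe sets. Its set 96063_at read 343 and 307 in C57BL/6 and 389 and 122 in AND-TCR, and 161686_i_at lay between −335 and 39.6. The arrays therefore gave no fold for the second Ku subunit.

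Prkdc, the gene of the DNA-PK catalytic subunit, was little above the limit on every array. It read 764 and 582 in C57BL/6 and 511 and 585 in AND-TCR on 93476_at. The genotypes overlapped, with ratios of 0.669 and 1.01. The log2 fold change was −0.29 with an interval from −0.96 to 0.39 (adjusted p = 0.723 from limma), so that a fall of up to 1.94-fold was not excluded by these arrays.

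Lig4, the gene of the ligase dedicated to end joining, read 2683 and 3081 in C57BL/6 and 1913 and 2006 in AND-TCR on 111224_at of U74Bv2. The groups did not overlap, yet the difference missed the threshold, with a log2 fold change of −0.55 (SE 0.24, interval −1.14 to 0.04, adjusted p = 0.392 from limma). The ratios were 0.713 and 0.651. The second Lig4 set, 169591_i_at on U74Cv2, was under the limit on all 4 arrays, with values between −548 and 710.

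Hmgb2, whose product bends DNA in the recombinase complex and is abundant in dividing lymphoid cells, read 16856 and 19659 in C57BL/6 and 11289 and 13755 in AND-TCR on 93250_r_at. Both AND-TCR values lay below both C57BL/6 values, with ratios of 0.670 and 0.700. The log2 fold change was −0.55 (SE 0.16, interval −0.92 to −0.18), and the adjusted p was 0.188 from limma, or 0.0380 with the replicate block. The set 170738_i_at on U74Cv2 was under the limit everywhere, between −1848 and −45.1.

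**Figure D4:**
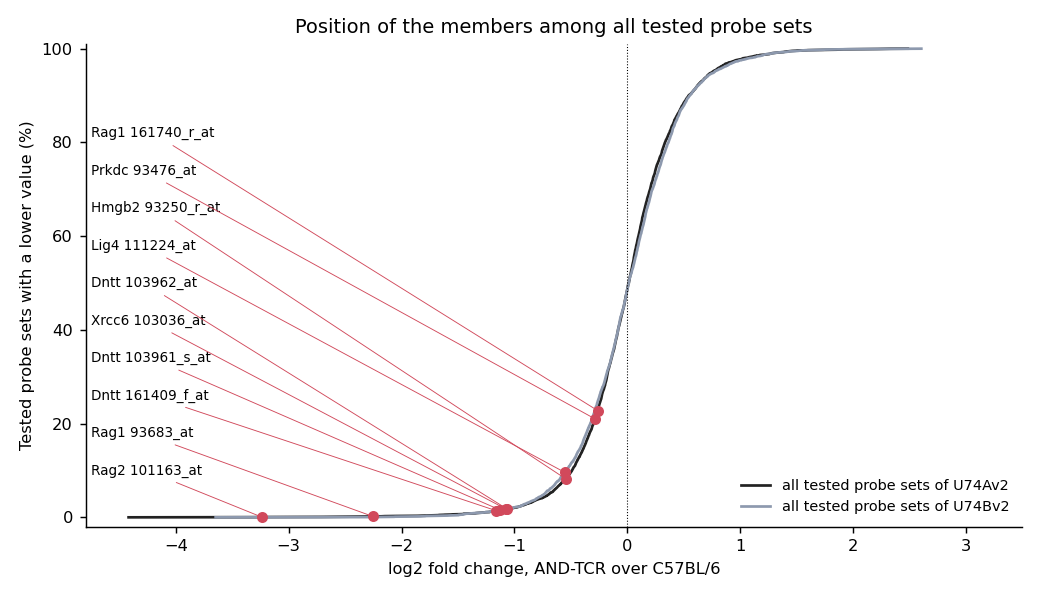
Cumulative share of tested probe sets with a lower value (y axis, %) against the log2 fold change of AND-TCR over C57BL/6 (x axis) for U74Av2 (black) and U74Bv2 (grey), with the 10 tested member probe sets as red points. Rag2 and Rag1 93683_at stand at the far left, the Dntt sets and Xrcc6 lie between 1.44% and 1.78%, and the rest lie between 8.24% and 22.8%.

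Other genes of break repair were then set beside the members, each taken at its tested probe set with the highest mean. By that rule 7 member genes were tested, with a median log2 fold change of −1.07. Only 2 of them, Rag1 and Rag2, were called lower, since the brightest Dntt set, 161409_f_at, was not called. No gene of the 5 pathway lists passed the test in either direction, where limma called 0.612% of 7843 genes lower and 0.65% higher, and the median log2 fold change over all genes was 0.03. A gene that was not called need not be unchanged, since most simulated log2 changes of −1 and of 1 were not called. The counts at an unadjusted p under 0.05 are given list by list, and over all genes these shares were 6.62% lower and 7.91% higher.

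The list of other end-joining factors also holds Dnttip1 and Dnttip2, included as partners of terminal transferase. Of this list, 5 of 10 were tested, with a median log2 fold change of 0.13 and 1 lower at an unadjusted p under 0.05. Nhej1, which encodes the XRCC4-like factor XLF, had the most negative fitted log2 fold change, −0.44 (adjusted p = 0.354 from limma), a value set in part by the floor, since both AND-TCR arrays were under the limit. Aptx, an end-processing enzyme, had the most positive one, 0.58 (adjusted p = 0.477 from limma). Dnttip1, named for its binding to terminal transferase, read 5568 and 5831 in C57BL/6 and 6417 and 6297 in AND-TCR, and its log2 fold change was 0.16 (adjusted p = 0.633 from limma). Dnttip2 had a log2 fold change of −0.16 (adjusted p = 0.854 from limma).

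Of the genes that sense and signal breaks, 10 of 14 were tested, with a median of −0.19 and 2 lower at an unadjusted p under 0.05. Chek2, a checkpoint kinase, read 748 and 818 in C57BL/6 and 326 and 170 in AND-TCR, both under the limit, so that its fitted log2 fold change of −0.89 (SE 0.25, adjusted p = 0.186 from limma) rests on the floor. Rad50 had the most positive log2 fold change among the brightest sets, 0.33 (adjusted p = 0.727 from limma), while the other tested set of Trp53bp1 had 0.88. H2afx, the gene of the histone variant that is phosphorylated around breaks, had −0.52 (adjusted p = 0.150 from limma), and Rif1 had 0.16 (adjusted p = 0.841 from limma).

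Among other ligases and homologous recombination genes, 6 of 15 were tested, with a median of −0.10 and, at an unadjusted p under 0.05, 1 lower and 1 higher. Brca1, under the limit on 1 of 2 AND-TCR arrays, was at the low end with a fitted −0.57 (adjusted p = 0.357 from limma). Rad54l, under the limit on both C57BL/6 arrays, was at the high end with a fitted 0.72 (SE 0.26, adjusted p = 0.286 from limma), and both values rest in part on the floor. Lig3, a ligase outside the main end-joining pathway, had 0.34 (adjusted p = 0.752 from limma) and Rad52 had 0.08 (adjusted p = 0.930 from limma). Of the other HMG proteins 5 of 10 were tested, with a median of −0.10 and none at an unadjusted p under 0.05. Hmgb3, the nearest relative of Hmgb2 tested, had −0.33 (adjusted p = 0.427 from limma) and Hmgn1 had −0.10 (adjusted p = 0.829 from limma). Hmg20b was lowest with −0.42 (adjusted p = 0.598 from limma) and Hmgn3 highest with 0.07 (adjusted p = 0.957 from limma). The other tested set of Hmg20b had −0.89.

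Regulators and partners of the RAG proteins were measured well, with 16 of 17 tested and all 16 above the limit on every array. Their median log2 fold change was 0.20, with 2 lower and 5 higher at an unadjusted p under 0.05. Myb, a transcription factor of immature thymocytes, read 27836 and 23405 in C57BL/6 and 17681 and 13633 in AND-TCR. Both AND-TCR values were below both C57BL/6 values, with a log2 fold change of −0.72 (adjusted p = 0.127 from limma, or 0.00559 with the replicate block). Foxo1, an activator of the Rag genes in B cell precursors, had the most positive value among the brightest sets. It read 1955 and 2728 in C57BL/6 and 5134 and 4901 in AND-TCR, with a log2 fold change of 1.12 (adjusted p = 0.106 from limma). The other tested Foxo1 set had 0.62, and less bright sets of Gata3 and Foxp1 reached 1.75 and 1.46. Satb1, a chromatin organizer of thymocytes that acts on the Rag locus, had 0.14 (adjusted p = 0.618 from limma). Ets1 had 0.48 (adjusted p = 0.651 from limma), and its second C57BL/6 array read 28013 against 57387 on the first.

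**Figure D5:**
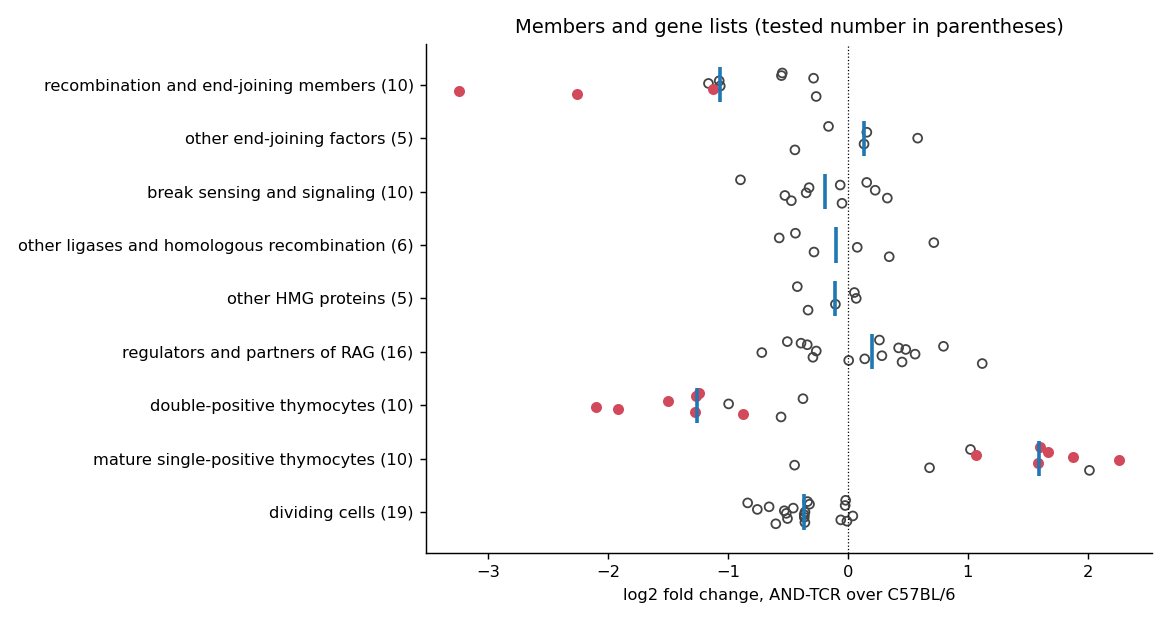
log2 fold change of AND-TCR over C57BL/6 (x axis) for the 10 tested member probe sets and for the tested genes of 5 pathway lists and 3 marker lists (y axis, tested number in parentheses), with red points at an adjusted p under 0.05 from limma and blue bars for the median. The pathway lists hold no red point and have medians between −0.19 and 0.20. Members are drawn at every tested probe set, list genes only at the tested set with the highest mean.

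The thymocyte stage markers also differed between the genotypes. Their lists were chosen with earlier results of these data known, so the counts only describe. The mature list holds Ccr7, Gimap3 and Gimap4, which the paper had reported as higher in AND-TCR from these arrays. Over all genes, limma called 0.612% lower and 0.65% higher. Of 10 tested markers of double-positive thymocytes, the stage at which the TCR α locus rearranges, 7 were lower and none was higher, with a median log2 fold change of −1.25. Their summed intensity, with values under the limit set to it as in all such sums here, was 177693 and 183085 in C57BL/6 and 76195 and 79290 in AND-TCR. Of 10 tested markers of mature single-positive cells, 6 were higher and none was lower, with a median of 1.59. The sums of these mature markers were 31290 and 29935 in C57BL/6 against 92140 and 88799 in AND-TCR. Il7r was the 1 mature marker with a negative log2 fold change, −0.44 (adjusted p = 0.537 from limma). Of 9 double-negative markers with a probe set, Il2ra, Kit and 4 others did not pass the filter, and none of the 3 tested was called (sums 2928 and 3011 in C57BL/6, 2671 and 3501 in AND-TCR). The part of these stage markers in the Rag1, Rag2 and Dntt values was not tested.

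Markers of dividing cells were set beside Xrcc6 and Hmgb2. Of 19 tested, none was called, 8 were lower at an unadjusted p under 0.05 and 18 had a negative log2 fold change, against 47.2% of all genes, with a median of −0.36 and sums of 106561 and 107201 in C57BL/6 and 88462 and 92425 in AND-TCR. Their part in the values of the repair genes was not tested. Of the B cell markers, which matter because B cell precursors also express the RAG genes and Dntt, 6 of 11 were tested and none was called. Of the 6, 4 had a negative log2 fold change, with a median of −0.40, and at an unadjusted p under 0.05 Cd79a was lower and Blk higher. Cd79a, a chain of the B cell receptor complex, read 920 and 986 in C57BL/6 and 222 and 326 in AND-TCR, both under the limit. Blk, a kinase of B cells, read 1924 and 375 in C57BL/6 and 3496 and 4127 in AND-TCR. The summed intensity of the 6 was 6020 and 4753 in C57BL/6 and 6723 and 7429 in AND-TCR, and without Blk it was 4096 and 4332 against 3227 and 3302. Vpreb1, Cd22, Ebf1 and Spib did not pass the filter. With the replicate block limma called Blk, 1 of these 6 markers, higher (adjusted p = 0.0150), and Hba-a1, the only tested marker of red blood cells, lower (adjusted p = 0.00877). None of 7 tested myeloid markers was called, nor was the only tested marker of thymic epithelium, Epcam.

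The probe sets most like Rag1 93683_at were sought among 4643 others of U74Av2 above the limit on all 4 arrays, by the distance between log2 values centred on their mean over the 4 arrays. The nearest was Trbv1 94726_at, a TCR β variable segment (distance 0.30, log2 fold change −2.27). Endou and Ly6d, both on the double-positive list, followed at 0.36 and 0.55 with −2.10 and −1.92. Gtf2h4, a subunit of transcription factor TFIIH, stood at 0.47 with −1.86, and Anxa2, a membrane-binding annexin, at 0.51 with −2.66. Over only 4 arrays, this measure mostly ranks probe sets by the size of their difference between the genotypes.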

How the data were processed

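Biotin-labeled targets from thymocyte RNA had been hybridized by the authors to 3 Affymetrix array types, and the scans were analyzed with Affymetrix Microarray Suite. The deposited values are linear intensities, some of them negative. The arrays had been brought to a common level by the authors, with means between 1000.4 and 1000.9 after 2% of values were trimmed from each end. Here each array was rescaled to the common trimmed mean of its type. The noise SD was estimated from the negative intensities of an array type, and values under the detection limit of 2 noise SDs were set to it before log2. Of the probe sets that are not controls, 12844 had both arrays of at least 1 genotype above the limit and were tested in limma 3.58.1 (R 4.3.3; lmFit and eBayes with a trend, 1 fit per array type), with Benjamini-Hochberg adjustment over all 3 types. Each array type was normalized on its own, so levels were set side by side within a probe set only. The number of arrays limits the precision.

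Hybridization number was tried as a block, since arrays of the same number shared a run day on 2 days. Deviations of same-numbered arrays from their genotype means correlated at 0.04, −0.12 and −0.23 on U74Av2, U74Bv2 and U74Cv2. Genes were named from the platform annotation, checked through RefSeq identifiers. Every member was named at each of its probe sets, and of each pathway list the called, the extreme and the 2 brightest genes. Members and lists were chosen with earlier results of these data known. The fit was tested on simulated data with 1 spread per array type. Of simulated log2 changes of −1 limma called 9.46%, and of −2 it called 29.7%, with a median fitted value of −1.54. Of changes of 1 it called 9.33% and of changes of 2 it called 89.3%. It called 0 unchanged probe sets. Python 3.11.15 with matplotlib 3.10.9 drew the figures.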

Additional observations from a re-analysis of the deposited data

How the results depend on the processing

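The count of member probe sets called lower was 3, of 135 calls over all tested probe sets from limma. A floor at 1 noise SD gave 6 member calls and 270 in all, and a generalized log without a floor gave 6 and 291. Asking for all 4 arrays above the limit gave 5 and 256, which left Rag2 out of the test. A floor at 2 times the detection limit gave 0 and 0, although 1357 probe sets had an unadjusted p under 0.05. No filter on low values gave 0 member calls and 62 in all over 36701 probe sets, and no trend in the prior variance gave 1 (Rag2) and 10. The cause was not tested. Leaving out each hybridization in turn gave between 0 and 0 member calls and between 0 and 0 in all, with 3 arrays per fit and 1290 to 1968 probe sets at an unadjusted p under 0.05. The replicate block gave 7 and 306. The numbers share a run day only, so the block is no paired analysis of animals. The deviations correlated at 0.04 on U74Av2 and inversely, at −0.12 and −0.23, on U74Bv2 and U74Cv2. Crossing the hybridization numbers, an alternative chosen after seeing the data, gave 6 and 455. Quantile normalization, unscaled values and adjustment within the array type gave 3 or 4 member calls.

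Over the 148 alternative values of the single probe sets, 108 kept their side of the threshold without a change of sign (Prkdc among them at 0 with the floor at 2 times the limit), 18 newly passed it, 20 no longer passed it and 2 changed sign. Both sign changes were in Rag1 161740_r_at, with a log2 fold change of 0.73 without the first C57BL/6 hybridization and of 0.19 without the first AND-TCR hybridization, and over the hybridizations left out it ran from −1.25 to 0.73. The floor sets what can be said of Rag2, whose log2 fold change was −2.37 with the floor at 2 times the limit. Signal over background also leaves Xrcc5 unmeasured and Prkdc near the limit.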
